A study of Mus musculus with 8 samples.

Results

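Glycogen metabolism and hepatic glycolysis were followed through 9 liver genes, *Gys2*, *Pygl*, *Gbe1*, *Ugp2*, *Ppp1r3b*, *Ppp1r3c*, *Pfkl*, *Pklr* and *Fbp1*. They were listed by name, with no measured value in the rule, but with earlier results of these data known. All 9 were present among the 14506 gene names of the expression table. Whole liver was taken from 8 mice on standard chow, 4 *Rragc*+/+ and 4 *Rragc*S74N/+, and RNA was read from the 3′ end of each messenger RNA. *Rragc* encodes RagC, a small GTPase through which amino acids and glucose activate the kinase complex mTORC1. The mutant mice carry the S74N substitution on 1 of their alleles, in every cell of the body, in a line made by Cas9 editing with a repair oligonucleotide. The *Rragc*+/+ mice were 3 months old, except replicate 4 at 2.5 months. *Rragc*S74N/+ replicates 1 and 2 were 3 months old, replicate 3 was 2.5 months and replicate 4 was 2 months. The labels give no sex, and the feeding state and hour of collection of the livers are not given in the sources used here.

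The liver stores glucose after a meal as glycogen and releases it between meals. UGP2 makes the UDP-glucose that glycogen synthase (GYS2 in liver) adds to growing chains, GBE1 puts in the branches, and glycogen phosphorylase (PYGL in liver) takes glucose units off again. PPP1R3B and PPP1R3C hold protein phosphatase 1 on the glycogen particle, where it switches the synthase on and the phosphorylase off. Liver phosphofructokinase (PFKL) and liver pyruvate kinase (PKLR) drive glucose down glycolysis, and fructose bisphosphatase (FBP1) reverses the phosphofructokinase step when the liver makes glucose. Much of this control acts on the proteins and not on the level of their RNA, which is what was measured here.

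Reads counted in listed genes ranged from 4313076 to 6632108 per liver, and the values below are normalized counts, that is, reads divided by a size factor of each liver. All 8 hepatocyte markers were present, with summed normalized counts of 273947 to 387611 in *Rragc*+/+ and 296315 to 520887 in *Rragc*S74N/+ livers. *Rragc*S74N/+ replicate 4, the youngest mouse, stood apart from the other livers. Its 10 male-biased liver genes summed to 20447, against 38689 to 67669 in the other *Rragc*S74N/+ and 76039 to 87256 in the *Rragc*+/+ livers. Of 8 female-biased liver genes 3 were in the table, and they summed to 888 there and to between 17.7 and 47.1 in the other 7 livers. Marker genes of a fasted liver (9 of 10 in the table) summed to 12641 and 11696 in *Rragc*S74N/+ replicates 1 and 4, and to between 5495 and 6859 elsewhere. Marker genes of a fed liver (9 of 10) ranged from 12750 to 37486 in *Rragc*+/+ and from 22064 to 34946 in *Rragc*S74N/+ livers. *Rragc*S74N/+ replicate 3 stood apart on the clock genes that peak near dusk (9 of 10 in the table), which summed to 2397 there, to between 614 and 915 in the other *Rragc*S74N/+ livers and to between 921 and 1713 in *Rragc*+/+ livers. The part of sex, feeding, hour of collection and these markers in the values below was not tested. Age was tried as a term and through the 3-month-old mice alone, and the fold change of each of the 9 genes is given with and without *Rragc*S74N/+ replicate 4. Values of single livers are listed below from replicate 1 to replicate 4 of each genotype. In whole tissue, fewer cells of a type and less RNA per cell cannot be told apart.

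Start-site sequences from RefSeq (GRCm38.p6) were found for 7 of the 9 genes, each window running from 250 bases before to 50 bases after an annotated start. Windows of 2 genes are printed because they hold the motif of a factor that reads nutrients in liver. TCACGTGA is the core of the CLEAR element, bound by the lysosomal regulators TFEB and TFE3, whose entry into the nucleus is controlled through the Rag GTPases. It contains the E-box CACGTG and was found in *Ppp1r3c*, starting 105 bases before the start site (capitals), and in 0.975% of 32817 such windows. CACGGG followed after 5 bases by CCCGTG is a strict form of the carbohydrate response element, bound by ChREBP (gene *Mlxipl*) with MLX. Its letters are those known from the pyruvate kinase promoter itself, so a match in *Pklr* was fixed in advance. It lay in the downstream *Pklr* window, starting 170 bases before the start (capitals). No other of the 32817 windows held this strict form. Looser forms of the element were not searched, so this does not tell how many windows carry one.
Ppp1r3c, chr19:36736555-36736854, minus strand: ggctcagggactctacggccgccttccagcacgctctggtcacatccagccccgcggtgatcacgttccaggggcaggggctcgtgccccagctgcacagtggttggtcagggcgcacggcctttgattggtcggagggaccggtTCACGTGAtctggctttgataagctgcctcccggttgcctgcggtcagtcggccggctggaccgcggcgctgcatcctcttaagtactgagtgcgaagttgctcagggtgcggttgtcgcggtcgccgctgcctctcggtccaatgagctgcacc
Pklr, chr3:89136373-89136672, plus strand: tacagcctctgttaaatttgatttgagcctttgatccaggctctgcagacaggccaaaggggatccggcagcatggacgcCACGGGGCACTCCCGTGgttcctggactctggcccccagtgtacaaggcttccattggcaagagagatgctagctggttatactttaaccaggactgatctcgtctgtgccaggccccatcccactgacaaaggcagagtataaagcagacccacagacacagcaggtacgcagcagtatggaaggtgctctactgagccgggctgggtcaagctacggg
Both strands were searched, and both motifs read the same on either strand. TATAAA also lay in the *Pklr* window, 31 bases before the start, and in 13.6% of all windows. The short cAMP response motif TGACG was in the *Pygl* window and in 20.8% of all windows. A match is a run of letters and was not tested as a binding site.

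No gene among the 9 passed the threshold of an adjusted p under 0.05 between genotypes. That test, limma on log2(normalized count + 1) with adjustment over all 11174 tested genes, called 1 gene in all (0.00895%). On the recovered whole reads edgeR called 0.00895% and DESeq2 0.0895% of the genes, again none of the 9. At an unadjusted p under 0.05, 2 of the 9 were found against 5.17% of all tested genes. *Gys2* was the higher (2.37% of tested genes in that direction) and *Ppp1r3b* the lower (2.80%) in *Rragc*S74N/+ livers. The same 2 of 9 were found with edgeR (5.53% of genes) and DESeq2 (6.04%). With age in months as a covariate the log2 fold change was 0.75 for *Gys2* and -0.69 for *Ppp1r3b*. With age as a factor, where the lone 2-month-old mouse adds nothing to the genotype difference, it was 0.77 and -0.73. *Gys2* was also the member whose genotypes did not overlap, which 1.30% of all tested genes did in that direction. The log2 fold change was above 0 for 5 of the 9 (51.3% of all tested genes) and below 0 for 4, with a median of 0.16 against 0.01 over all tested genes.

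*Gys2*, the glycogen synthase of liver, lies on chr6:142422613-142473109 (minus strand, GRCm38). Its normalized count was 83.0, 108, 93.4 and 68.2 in *Rragc*+/+ livers against 156, 117, 179 and 109 in *Rragc*S74N/+ livers. Every *Rragc*S74N/+ liver was above every *Rragc*+/+ liver, but the closest pair, *Rragc*S74N/+ replicate 4 and *Rragc*+/+ replicate 2, were nearly level. The means were 88.0 ± 16.6 (SD, n = 4) and 141 ± 33.0 (SD, n = 4), and the fitted fold change was 1.58 (95% interval 1.08 to 2.30). On the log2 scale this was 0.66 (SE 0.25, limma adjusted p = 0.846). Without *Rragc*S74N/+ replicate 4 it was 0.77, and among the 3-month-old mice alone (3 against 2) it was 0.52, where the unadjusted p was no longer under 0.05. The unadjusted p was also above 0.05 when *Rragc*+/+ replicate 4, *Rragc*S74N/+ replicate 1 or *Rragc*S74N/+ replicate 3 was left out, with log2 fold changes of 0.54, 0.60 and 0.53. *Gys2* rested on 66 to 170 reads per liver.

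*Ugp2*, which makes the UDP-glucose that the synthase uses (chr11:21321138-21371201, minus strand), had normalized counts of 403, 537, 812 and 423 in *Rragc*+/+ livers against 602, 572, 579 and 643 in *Rragc*S74N/+ livers. The *Rragc*S74N/+ livers lay close together inside the wider range of the *Rragc*+/+ livers. The mean was 544 ± 188 against 599 ± 31.7 (SD, n = 4 per genotype), and the log2 fold change was 0.20 (95% interval -0.30 to 0.70, limma adjusted p = 0.869). It was 0.16 without *Rragc*S74N/+ replicate 4 and 0.07 among the 3-month-old mice. Without *Rragc*+/+ replicate 3, the highest liver, it was 0.41, without *Rragc*+/+ replicate 1 it was 0.07 and without *Rragc*+/+ replicate 4 it was 0.10, none with an unadjusted p under 0.05.

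*Gbe1*, the branching enzyme (chr16:70313949-70569716, plus strand), was at 413, 274, 446 and 606 in *Rragc*+/+ livers against 472, 507, 645 and 305 in *Rragc*S74N/+ livers. The genotypes overlapped almost fully, and each held low and high livers. The mean was 435 ± 136 against 482 ± 139.8 (SD, n = 4 per genotype), and the log2 fold change was 0.16 (95% interval -0.45 to 0.76, limma adjusted p = 0.91). It was 0.36 without *Rragc*S74N/+ replicate 4, 0.33 without *Rragc*+/+ replicate 4 and 0.40 among the 3-month-old mice, and its sign turned to -0.05 without *Rragc*+/+ replicate 2.

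*Pygl*, the phosphorylase that releases glucose 1-phosphate from glycogen (chr12:70190811-70231488, minus strand), had the highest mean count of the 9. It was at 4452, 2332, 2889 and 4096 in *Rragc*+/+ livers against 2385, 2349, 3321 and 1869.8 in *Rragc*S74N/+ livers. The top pair of livers were *Rragc*+/+ replicates 1 and 4 and the lowest was *Rragc*S74N/+ replicate 4, with the rest interleaved. The mean was 3442 ± 998 against 2481 ± 607 (SD, n = 4 per genotype), and the log2 fold change was -0.45 (SE 0.25, 95% interval -1.0 to 0.09, limma adjusted p = 0.846). Without *Rragc*S74N/+ replicate 4 it was -0.33. Without *Rragc*+/+ replicate 2 it was -0.63, and without *Rragc*S74N/+ replicate 3 it was -0.61, both with an unadjusted p under 0.05.

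The targeting subunits of protein phosphatase 1 were both lower on average in *Rragc*S74N/+ livers, by unequal amounts. *Ppp1r3b* encodes the subunit long known in liver (chr8:35375739-35388139, plus strand). Its normalized count was 162, 319, 365 and 223 in *Rragc*+/+ livers against 148, 182, 126 and 159.9 in *Rragc*S74N/+ livers. The *Rragc*S74N/+ livers were low and close together, and the overlap came from *Rragc*+/+ replicate 1, which lay below *Rragc*S74N/+ replicate 2. The means were 267 ± 91.6 and 154 ± 23.5 (SD, n = 4 each), and the fitted fold change was 0.60 (95% interval 0.402 to 0.897). On the log2 scale this was -0.74 (SE 0.27, limma adjusted p = 0.846). It was -0.76 without *Rragc*S74N/+ replicate 4, and -0.70 among the 3-month-old mice, where the unadjusted p was above 0.05. That p was also above 0.05 without *Rragc*+/+ replicate 2 (-0.63) or *Rragc*+/+ replicate 3 (-0.56), the high livers. *Ppp1r3b* rested on 113 to 341 reads per liver.

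*Ppp1r3c*, which encodes the widely expressed subunit called PTG (chr19:36731731-36736653, minus strand) and carries the CLEAR core printed above, was at 289.9, 431, 399 and 283 in *Rragc*+/+ livers against 216, 340.4, 493 and 203 in *Rragc*S74N/+ livers. *Rragc*S74N/+ replicate 3 was the highest of all 8 livers and replicates 1 and 4 were the lowest. The mean was 351 ± 75.4 against 313 ± 135 (SD, n = 4 per genotype), and the log2 fold change was -0.23 (95% interval -0.86 to 0.39, limma adjusted p = 0.874). It was -0.06 without *Rragc*S74N/+ replicate 4, -0.09 without replicate 1 and -0.48 without replicate 3 of that genotype, the liver with the highest dusk clock genes.

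**Figure D1:**
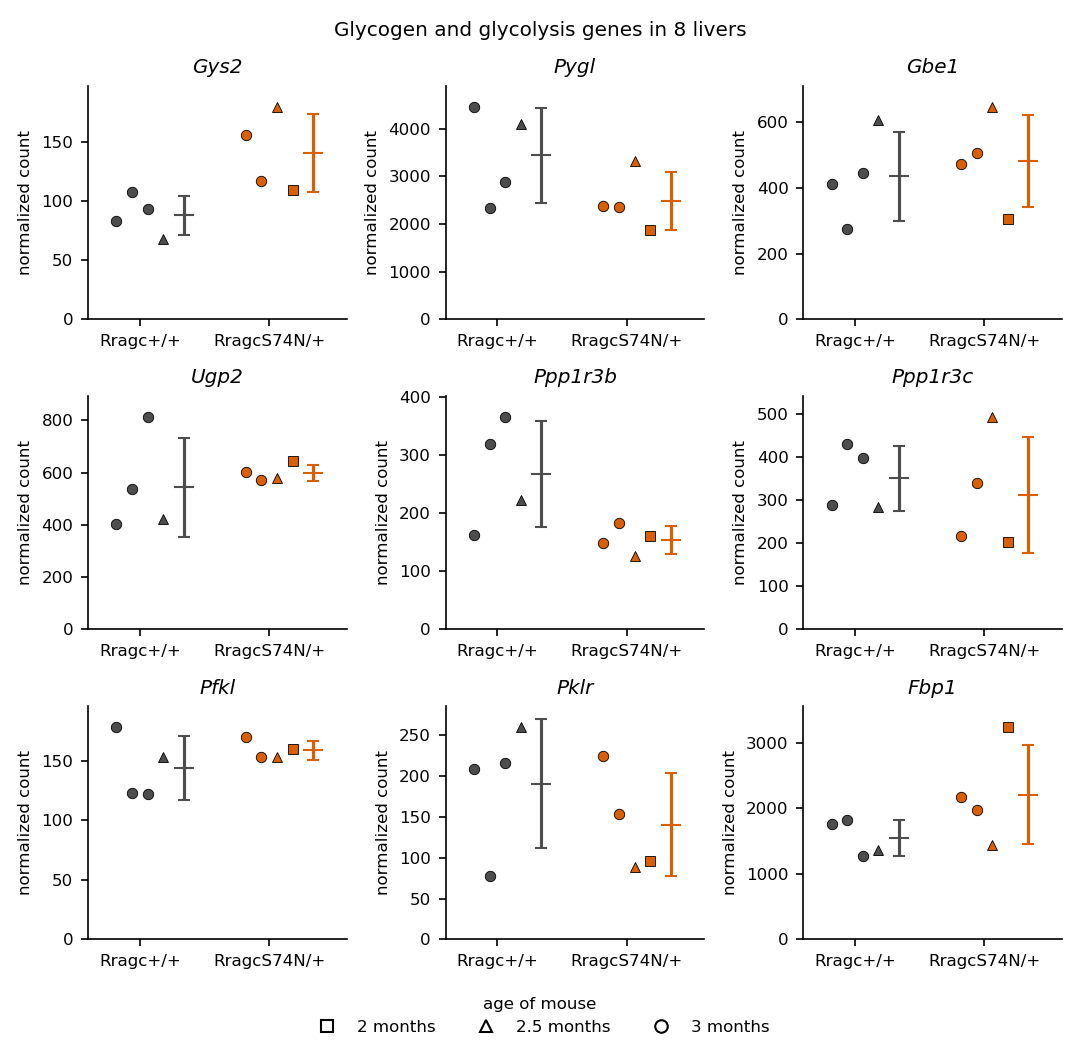
Normalized count (y axis, from 0, a panel per gene) of the 9 genes in each liver, with *Rragc*+/+ on the left and *Rragc*S74N/+ on the right of each panel, the age of the mouse as the symbol, and the mean and SD of each genotype as the line and bar. The *Gys2* panel shows no overlap between genotypes, and *Ppp1r3b* shows *Rragc*S74N/+ livers between 126 and 182 beside *Rragc*+/+ livers between 162 and 365.

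*Pfkl*, the liver subunit of phosphofructokinase (chr10:77986947-78010083, minus strand), was at 178, 123, 122 and 153 in *Rragc*+/+ livers against 169.9, 153, 153 and 159.9 in *Rragc*S74N/+ livers. It was the steadiest of the 9, and the *Rragc*S74N/+ livers again lay inside the *Rragc*+/+ range. The mean was 144 ± 27.1 against 159 ± 8.09 (SD, n = 4 per genotype), and the log2 fold change was 0.16 (95% interval -0.30 to 0.62, limma adjusted p = 0.879). It was also 0.16 without *Rragc*S74N/+ replicate 4, and ran from 0.09 (without *Rragc*+/+ replicate 3) to 0.27 (without *Rragc*+/+ replicate 1) with a liver left out. The interval holds differences of up to 1.54-fold.

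*Pklr*, the pyruvate kinase of liver and red cells (chr3:89136142-89146784, plus strand), was at 209, 77.6, 216 and 259.7 in *Rragc*+/+ livers against 224, 154, 89.2 and 95.4 in *Rragc*S74N/+ livers. A low liver was found in each genotype, and *Rragc*S74N/+ replicate 1 was as high as most *Rragc*+/+ livers. The mean was 191 ± 78.6 against 141 ± 62.8 (SD, n = 4 per genotype), and the log2 fold change was -0.41 (SE 0.39, 95% interval -1.25 to 0.44, limma adjusted p = 0.852). It was -0.26 without *Rragc*S74N/+ replicate 4, and among the 3-month-old mice the sign turned to 0.29. Without *Rragc*+/+ replicate 2, the lowest liver, it was -0.79, with an unadjusted p under 0.05.

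*Fbp1*, which removes the phosphate that phosphofructokinase adds (chr13:62864753-62888282, minus strand), was at 1757, 1817, 1269 and 1358 in *Rragc*+/+ livers against 2166, 1980.1, 1444 and 3235 in *Rragc*S74N/+ livers. *Rragc*S74N/+ replicate 4 was far above the rest, replicates 1 and 2 were just above the *Rragc*+/+ livers and replicate 3 lay among them. The mean was 1550.4 ± 277 against 2206 ± 751 (SD, n = 4 per genotype), and the log2 fold change was 0.47 (SE 0.25, 95% interval -0.07 to 1.0, limma adjusted p = 0.846). Without *Rragc*S74N/+ replicate 4 it was 0.26, and without *Rragc*S74N/+ replicate 3 it was 0.65, the latter with an unadjusted p under 0.05.

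**Figure D2:**
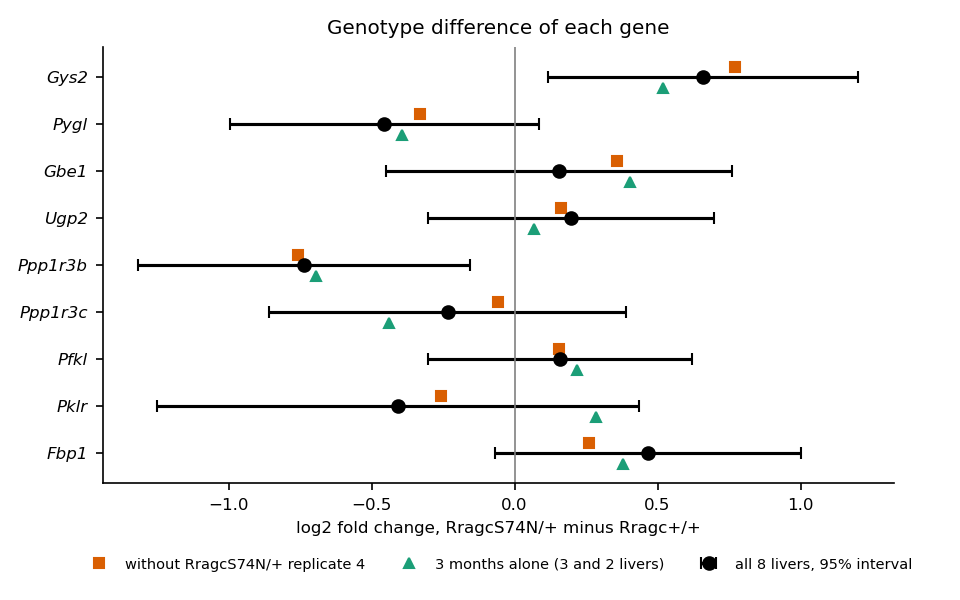
Log2 fold change of each of the 9 genes (x axis, *Rragc*S74N/+ minus *Rragc*+/+), with the 95% interval for all 8 livers and further symbols for the fit without *Rragc*S74N/+ replicate 4 and for the 3-month-old mice alone. The intervals of *Gys2* (0.12 to 1.20) and *Ppp1r3b* (-1.31 to -0.16) leave 0 out, and *Pklr* is the gene whose sign turns among the 3-month-old mice.

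Because reads come from the 3′ end of each transcript, normalized counts of different genes can be set side by side without a length term. How evenly the 3′ ends of different genes were captured and counted was not checked, so the order below is one of counts. Over the 8 livers *Pygl* had the highest mean normalized count (2962 ± 921, SD), followed by *Fbp1* (1878 ± 631) and *Ugp2* (571 ± 129). Then came *Gbe1* (458 ± 130.4), *Ppp1r3c* (332 ± 103), *Ppp1r3b* (211 ± 86.6), *Pklr* (166 ± 71.1), *Pfkl* (151 ± 20.2) and *Gys2* (114 ± 37.1). *Fbp1* was above *Ugp2*, and *Ppp1r3c* above *Ppp1r3b*, in all 8 livers. *Pygl* was above *Fbp1*, *Gbe1* above *Ppp1r3c*, and *Pfkl* above *Gys2* in 7 of 8, with *Rragc*S74N/+ replicate 4 the liver where *Fbp1* passed *Pygl*. *Ugp2* and *Gbe1*, *Ppp1r3b* and *Pklr*, and *Pklr* and *Pfkl* kept their order in 5 of 8 livers and did not differ beyond their spread. By mean count the phosphorylase transcript was thus near the top of the tested genes (percentile 98.1) and the synthase transcript near the middle (percentile 59.7).

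The 9 genes differed in how much they varied between livers of the same genotype. On the log2 scale the within-genotype SD was lowest for *Pfkl* at 0.19, which is percentile 7.93 of the 6810 tested genes with a mean of 50 to 5000. It was highest for *Pklr* at 0.71 (percentile 91.2), so that the enzymes that start and end the committed part of glycolysis stood at opposite ends. *Gys2* (0.31), *Ugp2* (0.33), *Fbp1* (0.39), *Pygl* (0.39) and *Ppp1r3b* (0.40) lay near the median of 0.37, and *Gbe1* (0.46) and *Ppp1r3c* (0.48) somewhat above it.

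Most of these enzymes have relatives used by other tissues, and the share of the liver form in its family was taken from the reads of each liver. *Gys2* made up 73.0%, 81.6%, 76.7% and 78.5% of *Gys1* plus *Gys2* reads in *Rragc*+/+ livers against 91.4%, 81.5%, 85.6% and 97.1% in *Rragc*S74N/+ livers. *Rragc*S74N/+ replicates 1, 3 and 4 were above all *Rragc*+/+ livers, and *Rragc*S74N/+ replicate 2 was level with *Rragc*+/+ replicate 2. The share is made from the same *Gys2* reads, which were already higher without overlap, so this was partly built in. *Gys1* itself rested on 4 to 33 reads per liver and overlapped between genotypes. The 95% Wilson intervals were 64.5% to 80.0% for the lowest share and 92.8% to 98.9% for the highest, and they cover counting error only. *Gys1*, the muscle form, had 3.26 normalized counts (4 reads) in *Rragc*S74N/+ replicate 4 and 14.7 to 30.8 in the other 7 livers.

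*Pygl* gave 94.8% to 97.7% of the reads of its family, whose muscle member *Pygm* stayed at 11.3 normalized counts or below, while the brain form *Pygb* ran from 61.7 to 119.98. *Pfkl* gave 57.1% to 82.7%, with means of 70.8% ± 3.84 and 71.0% ± 11.3 (SD, n = 4 each) in *Rragc*+/+ and *Rragc*S74N/+, and *Pfkm* and *Pfkp* the remainder. *Pklr* gave 44.1% to 69.7% of *Pklr* plus *Pkm*, so the other pyruvate kinase gene held a large share in every liver. The means were 60.0% ± 11.2 in *Rragc*+/+ and 53.5% ± 9.39 in *Rragc*S74N/+ (SD, n = 4 each), and the genotypes overlapped.

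The ratio of the *Pygl* to the *Gys2* transcript was looked at after their values were seen and is given without a test. *Gys2* was already higher without overlap, and *Pygl* lower on average, in *Rragc*S74N/+ livers. A separation of the ratio was therefore largely built in and adds nothing to the values of the genes themselves. How often ratios of other gene pairs separate was not computed. It was 53.7, 21.7, 30.9 and 60.1 in *Rragc*+/+ livers against 15.3, 20.02, 18.5 and 17.1 in *Rragc*S74N/+ livers. The *Rragc*S74N/+ livers lay in a narrow band under all *Rragc*+/+ livers, and *Rragc*+/+ replicate 2 came close to that band. The means were 41.6 ± 18.2 and 17.7 ± 2.02 (SD, n = 4 each).

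**Figure D3:**
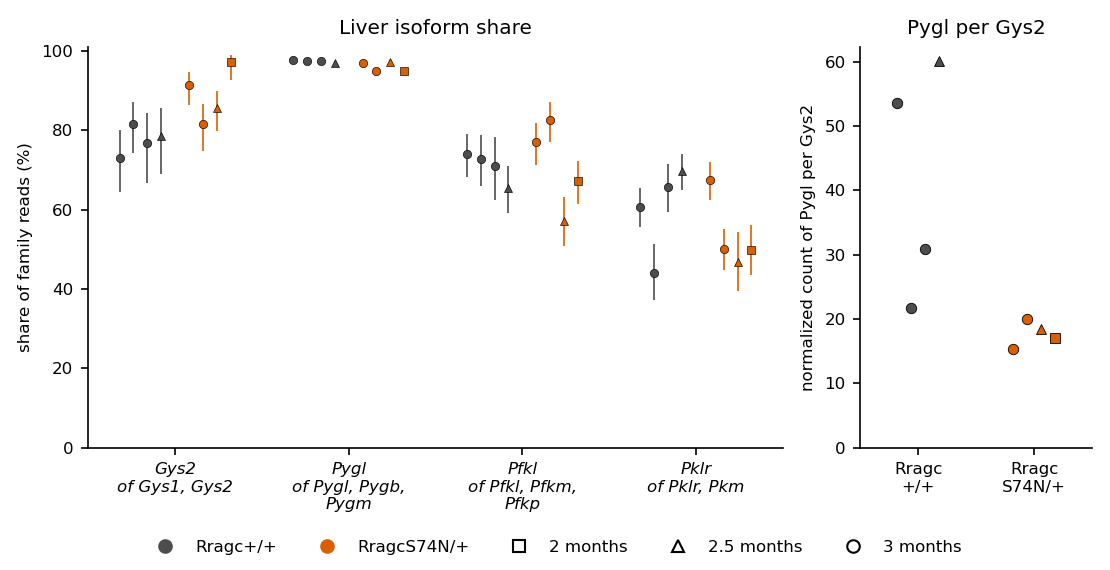
Left, share of each liver isoform in the reads of its family (y axis, %) per liver, with genotype as the colour, age as the symbol and 95% Wilson intervals as bars. Right, normalized count of *Pygl* per normalized count of *Gys2*, with a point for each liver. The *Gys2* share runs from 73.0% to 97.1%, the *Pygl* share from 94.8% to 97.7%, and the *Pygl* per *Gys2* ratio is 15.3 to 20.02 in *Rragc*S74N/+ and 21.7 to 60.1 in *Rragc*+/+ livers.

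The rest of the pathway was read from 6 lists of 102 genes, of which 92 were in the table and 83 were tested. None of the 83 passed the adjusted threshold, and 3 had an unadjusted limma p under 0.05, all higher in *Rragc*S74N/+, beside 2.37% of all tested genes in that direction and 5.17% in either. The log2 fold change was above 0 for 48 and below 0 for 35, with a median of 0.09. Among 18 other glycogen enzymes and regulators, 11 were above 0 and 7 below, from -0.75 (*Gys1*) to 0.84 (*Stbd1*), and none had an unadjusted p under 0.05. Among 19 other glycolysis genes, 8 were above 0 and 11 below with none under 0.05. The 13 genes of glucose transport and pyruvate entry (7 above 0, 6 below) and the 7 of fructose and galactose use (3 above 0, 4 below) also held none.

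Gluconeogenesis held 2 of the 3 genes, in 8 tested with a median log2 fold change of 0.36. *Pck1*, which makes phosphoenolpyruvate for new glucose, had normalized counts of 425, 648, 986 and 802 in *Rragc*+/+ livers against 1999, 823, 849 and 4095 in *Rragc*S74N/+ livers. The high livers were *Rragc*S74N/+ replicates 4 and 1, as in the fasted marker list, which contains *Pck1*. Its log2 fold change was 1.18 (SE 0.45, limma adjusted p = 0.846), and 0.71, with an unadjusted p above 0.05, without *Rragc*S74N/+ replicate 4. *Got1*, an aspartate aminotransferase, was at 335, 431, 319.7 and 197 in *Rragc*+/+ livers against 688, 627, 249 and 3231 in *Rragc*S74N/+ livers. Its level in *Rragc*S74N/+ replicate 4 was far above all others. Its log2 fold change was 1.31 (SE 0.57, limma adjusted p = 0.846), and 0.62, with an unadjusted p above 0.05, without that liver. The 3-month-old mice alone gave 0.98 for *Pck1* and 0.87 for *Got1*, and limma put both genes below the unadjusted 0.05 cutoff. Treating age as a factor gave 0.72 and 0.71, again below that cutoff. The covariate fit for age gave 0.87 and 1.04, and there neither gene reached it.

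The third gene was *Klf15*, a transcription factor of the fasting liver, in the list of carbohydrate response and hormone signaling (18 tested, 14 above 0 and 4 below, median 0.27). It was at 38.2, 90.7, 84.9 and 48.6 in *Rragc*+/+ livers against 172, 88.9, 80.2 and 217 in *Rragc*S74N/+ livers, again with replicates 4 and 1 at the top. Its log2 fold change was 1.04 (SE 0.38, limma adjusted p = 0.846), and 0.79, with an unadjusted p above 0.05, without *Rragc*S74N/+ replicate 4. It was 0.88 among the 3-month-old mice alone and 0.97 with age as a covariate, both with an unadjusted p under 0.05. *Fbp1* shared this order of *Rragc*S74N/+ livers (replicate 4, then 1), while *Gys2* did not, being highest in replicates 3 and 1. *Aldoc*, a minor aldolase of liver, was at 121, 121, 132 and 129.9 in *Rragc*+/+ livers against 105, 115, 108 and 80.8 in *Rragc*S74N/+ livers. Its genotypes did not overlap, which 1.64% of all tested genes did in that direction, and its log2 fold change was -0.31 (SE 0.22, limma adjusted p = 0.846) with all livers and -0.20 without *Rragc*S74N/+ replicate 4.

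**Figure D4:**
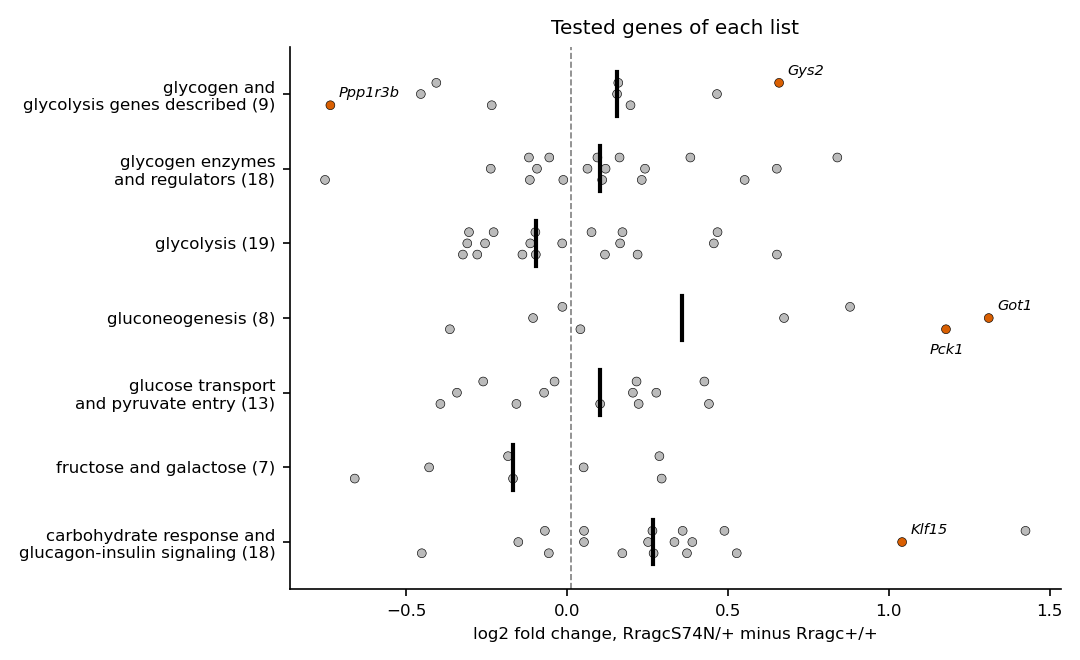
Log2 fold change (x axis, *Rragc*S74N/+ minus *Rragc*+/+) of each tested gene of the 9 and of the 6 lists (rows, number tested in brackets), with a point for each gene and a bar at each list's median. The named and coloured points are genes with an unadjusted p under 0.05, the dashed line is the median of all tested genes, and the list medians run from -0.17 (fructose and galactose) to 0.36 (gluconeogenesis).

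The pattern of each gene over the 8 livers was compared with that of all tested genes by the root mean square distance between z-scored log2 values, where 0 is an identical pattern. This is a description over 8 livers, and the closest are picked from 11174 genes. The closest genes were *Bnip3* (0.164) and *Ano6* (0.338) for *Gys2*, *Spsb2* (0.163) and *Ssx2ip* (0.216) for *Pygl*, and *Cep57l1* (0.363) and *Foxn2* (0.416) for *Ppp1r3b*. For *Fbp1* they were *Gnmt* (0.248) and *Sulf2* (0.259), for *Pklr* *Inip* (0.234) and *2700046G09Rik* (0.292), and for *Pfkl* *Clec1a* (0.241) and *Chac1* (0.258). *Gbe1* was closest to *Pcm1* (0.244) and *Zfp385a* (0.272), *Ugp2* to *Fermt2* (0.279) and *Smim13* (0.296), and *Ppp1r3c* to *Chd3* (0.259) and *Nav2* (0.311). Among the 9 themselves, a far smaller pool to pick from, the nearest to *Gys2* was *Ugp2* at 1.01, *Pygl* and *Gbe1* were 0.880 apart, and *Ppp1r3b* and *Ppp1r3c* were 1.07 apart.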

How the data were processed

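RNA of 8 whole mouse livers was made into QuantSeq 3′ libraries. The authors ran FastQC 0.11.7, aligned to GRCm38 with TopHat2 2.0.10, Bowtie 1.0.0 and SAMtools 0.1.19, and used HTSeq 0.6.1 for stranded gene counts (versions per the submitters' processing notes). The deposited values are a signal, the normalized count per gene and liver after DESeq size-factor scaling. Every value was a whole multiple of its liver's smallest value above 0 (tolerance 0.001), so whole reads were recovered, with size factors of 0.707 to 1.23. Columns left unused numbered 0. Reads carry no stated molecular identifiers.

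Genotypes were tested with limma 3.58.1 in R 4.3.3 (eBayes with trend) on log2(normalized count + 1), keeping 11174 genes whose mean reached 10, genotype as the only term, Benjamini-Hochberg at 0.05. Such fold changes understate low genes. The whole table was fitted, and the procedure was tested on simulated data. edgeR 4.0.16, DESeq2 1.42.0 (both on recovered reads), other pseudocounts, filters, scalings and age terms, and omission of each liver were alternatives. Groups and ages came from the labels. Replicate numbers only name livers, and p-values measure the spread between these mice.

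Named were the 9 genes, list genes with an unadjusted p under 0.05 or no overlap, isoform relatives, and for each of the 9 its 2 nearest tested genes and nearest other member by pattern. The genes and lists were chosen with earlier results of these data known. Gene coordinates are from GENCODE M21 (GRCm38), which held 14458 of the 14506 names. The authors' annotation release may differ. A further isoform share that was computed is not reported here.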

Additional observations from a re-analysis of the deposited data

Results flagged for a closer look

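In 54 sets of 4 livers (the 9 genes, marker lists, shares and read totals by genotype), a liver was picked out when its gap to the nearest of the other 3 took up a larger part of the group's range than Dixon's 95% critical value. Chance gives about 2.7 such livers, and 5 were found. Among the glycolysis genes, the *Pklr* share of *Pklr* plus *Pkm* reads was 67.4% in *Rragc*S74N/+ replicate 1 and 46.8% to 50% in the other *Rragc*S74N/+ livers. The mean log2 level of the sinusoidal endothelium markers was 5.77 in *Rragc*S74N/+ replicate 3 and 6.86 to 6.87 in the other 3. *Rragc*+/+ replicate 3 had 4313076 reads against 6177759 to 6509465 in the other *Rragc*+/+ livers, and its hepatocyte markers had a mean log2 level of 14.1 against 13.5 to 13.6. The clock genes that peak near dawn had a mean log2 level of 5.22 in *Rragc*+/+ replicate 4 and 6.01 to 6.13 in the other *Rragc*+/+ livers. None of the 9 genes had such a liver.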

How the results depend on the processing

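None of the 9 genes passed the adjusted threshold in any of 12 alternatives or with any liver left out. With 12 alternatives, the log2 fold change ran from 0.52 to 0.77 for *Gys2* and from -0.79 to -0.69 for *Ppp1r3b*, and with a liver left out from 0.53 to 0.77 and from -0.95 to -0.56. Members with an unadjusted p under 0.05 numbered 2, then 0 in the 3-month-old mice alone (fewer livers) and 1 to 3 with a liver left out. *Pklr* turned to 0.29 in the 3-month-old mice, and *Gbe1* ran from -0.0475 (without *Rragc*+/+ replicate 2) to 0.36, turning also without *Rragc*S74N/+ replicate 3 (-0.0012). Pathway list genes with an unadjusted p under 0.05 numbered 3, then 1 with age as a covariate, 7 in the 3-month-old mice, and 0 (without *Rragc*+/+ replicate 1 or *Rragc*S74N/+ replicate 4) to 15 (without *Rragc*S74N/+ replicate 3). Genes past the adjusted threshold numbered 1, then 0 without the trend, with age as a covariate and in the 3-month-old mice, 3 with age as a factor, 10 with DESeq2 and 0 to 2 with a liver left out. The cause was not tested. No paired analysis was possible because labels tie no mouse to a mouse of the other genotype. *Gys2*, *Pklr* and *Pfkl* had the fewest reads of the 9 in a liver, at 66, 80 and 86.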
